A study of Mus musculus with 7 samples.

Results

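The calcium cycling genes of heart muscle cells were read in ventricle RNA of mice with myocarditis of the kind caused by immune checkpoint inhibitors (ICI) and in control ventricle. They were Ryr2, Atp2a2, Pln, Sln, Casq2, Trdn, Jph2, Hrc, Cacna1c and Slc8a1. The list was chosen by name for the roles of the encoded proteins in the contraction cycle, with earlier results of these data known. All 10 had a row of their own among the 23420 gene rows of the deposited table. The 4 control mice were Ctla4+/+;Pdcd1-/- and the 3 ICI-myocarditis mice Ctla4+/-;Pdcd1-/-, so every animal was labelled as lacking Pdcd1 and by their labels the groups differed by a single copy of Ctla4. All mice were untreated and 3 to 6 weeks old, and the frozen tissue was cardiac ventricle by the protocol, although the tissue label names the whole heart. The labels name the mice by number and do not say whether they were littermates, of which sex they were, or how severe the disease was in each.

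In a cardiomyocyte each beat begins when L-type calcium channels, whose pore is the product of Cacna1c, admit a little calcium at the T-tubule. That calcium opens ryanodine receptors (Ryr2) in the facing membrane of the sarcoplasmic reticulum, the internal calcium store, and the released calcium drives contraction. For relaxation the pump SERCA2a (Atp2a2) returns calcium to the store under the restraint of phospholamban (Pln) and sarcolipin (Sln), and the sodium-calcium exchanger (Slc8a1) expels the rest from the cell. Calsequestrin 2 (Casq2) and the histidine-rich calcium binding protein (Hrc) bind calcium inside the store, triadin (Trdn) ties them to the ryanodine receptor, and junctophilin 2 (Jph2) holds the membranes of the junction together.

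Promoter sequence was available from RefSeq (GRCm38.p6) for 7 of the 10 genes. Atp2a2, Trdn and Sln had no entry. The 250 bases before the transcription start are given for Hrc and Ryr2, whose transcripts lay lower in every ICI-myocarditis library than in any control, and for Pln and Slc8a1, whose groups overlapped. Capitals mark matches, on either strand, to the GATA-type hexamer AGATAA and to the E-box CANNTG. The MCAT hexamer CATTCC, the MEF2 site and the CArG box, sites of muscle transcription factors, were searched as well. None of these patterns overlapped another in the 4 windows.
Hrc, chr7:45335019-45335268, plus strand: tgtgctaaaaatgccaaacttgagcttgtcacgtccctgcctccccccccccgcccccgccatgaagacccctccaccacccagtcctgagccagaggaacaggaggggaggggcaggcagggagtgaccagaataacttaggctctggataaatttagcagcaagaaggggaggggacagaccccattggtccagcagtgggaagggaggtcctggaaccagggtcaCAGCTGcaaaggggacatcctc
Ryr2, chr13:12106946-12107195, minus strand: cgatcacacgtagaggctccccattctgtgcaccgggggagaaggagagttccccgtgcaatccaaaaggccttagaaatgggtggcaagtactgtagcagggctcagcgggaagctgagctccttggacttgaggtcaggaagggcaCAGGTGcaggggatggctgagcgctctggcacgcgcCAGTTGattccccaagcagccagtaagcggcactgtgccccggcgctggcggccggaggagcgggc
Pln, chr10:53337436-53337685, plus strand: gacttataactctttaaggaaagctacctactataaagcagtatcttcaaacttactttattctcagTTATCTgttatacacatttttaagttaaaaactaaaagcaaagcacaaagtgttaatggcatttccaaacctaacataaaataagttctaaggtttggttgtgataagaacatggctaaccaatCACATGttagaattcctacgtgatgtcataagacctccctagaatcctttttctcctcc
Slc8a1, chr17:81738388-81738637, minus strand: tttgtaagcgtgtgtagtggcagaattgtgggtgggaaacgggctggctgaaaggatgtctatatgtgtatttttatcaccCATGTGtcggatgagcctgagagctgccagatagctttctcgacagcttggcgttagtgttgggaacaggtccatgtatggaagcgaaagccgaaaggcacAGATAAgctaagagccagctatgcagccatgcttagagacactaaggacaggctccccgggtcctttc

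AGATAA was found in the windows of Pln, from base 183 to base 178 before the start, and of Slc8a1, from base 68 to base 63, and in 9.99% of all 32851 promoter windows of this length. E-boxes were found in all 4 printed windows and in 66.2% of all windows. CATTCC (12.6% of windows), the CArG box (1.47%) and the MEF2 site (0.508%) had no match in the windows of any of the 7 genes. The 4 printed windows differed in base composition, from 32.8% G and C for Pln to 63.2% for Ryr2, against a median of 52.4% over all windows. A match describes letters only. Of the 7 genes with a window only Hrc passed the test described next, and any link of the AGATAA matches to the fold changes was not tested.

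Each library was read as normalized counts, that is, gene reads divided by a size factor of the library. Totals recovered from these values ran from 20931730 to 39037176 reads. Fold changes compare ICI-myocarditis with control on the scale log2(normalized count + 1), tested with limma over 15236 genes, and a gene was called at an adjusted p under 0.05. By this rule 15.7% of tested genes were called, 4.00% lower and 11.7% higher in ICI-myocarditis. Reads of Pdcd1 were present in all libraries, up to 244 normalized counts in the controls and from 1096 to 1481 in ICI-myocarditis, and gene counts do not show which exons they came from. Ctla4 was higher in every ICI-myocarditis library (251 to 373 normalized counts) than in any control (29.2 to 113), the opposite order to the labelled copy number. Both are genes of activated T cells, whose markers were higher in ICI-myocarditis as well, so neither gene checks the genotype labels, which are used as given. Control 2 stood apart from the other controls: its summed level of 7 T cell markers was 1611 normalized counts, against 128 to 203 in the others and 6852 to 10495 in ICI-myocarditis. Nothing in the labels gives a batch.

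The tissue carried the markers of ventricle. Myl2, the ventricular myosin light chain, lay between 48020 and 272621 normalized counts, while among 9 atrial markers Bmp10 was at 0 in all libraries and Myl7 between 2.47 and 48.0. Not all atrial markers were low: Kcnj3 lay between 196 and 2026, Nr2f2 between 452 and 1001, and Nppa (6265 to 174572) and Dkk3 (91.3 to 2298) were called higher in ICI-myocarditis, by 3.60 and 3.02 on the log2 scale (limma adjusted p = 0.00317 and 0.00394). In bulk tissue, fewer cardiomyocytes and less RNA of these genes per cardiomyocyte cannot be told apart. The summed level of 18 cardiomyocyte reference genes, sarcomere and related muscle genes outside the calcium list, ran from 2853041 to 5939721 normalized counts in the controls and from 2192476 to 3399818 in ICI-myocarditis, so the groups overlapped. Its lowest control was control 2 and its lowest library of all ICI-myocarditis 3. Macrophage markers summed to between 11726 and 16096 in controls and between 46246 and 69641 in ICI-myocarditis. Fibroblast markers summed to between 52845 and 84504 and between 131867 and 193597. Of the 7 fibroblast markers only the collagen genes Col1a1, Col1a2 and Col3a1 were called higher, and the remaining 4 (Pdgfra, Dcn, Lum and Tcf21) did not pass. Endothelial markers (29127 to 75219 and 21532 to 27860) and smooth muscle and pericyte markers (39291 to 52216 and 21317 to 25350) were lower in every ICI-myocarditis library. The part of cell composition in the fold changes below was not tested beyond a second scaling, to the mean log2 level of the 18 reference genes.

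Of the calcium cycling genes, Hrc and Trdn were called lower in ICI-myocarditis. The estimates for the other 7 tested genes were below 0 without passing the test, and Sln was not tested. Of the 9 that passed the filter on low counts, all 9 had a fold change below 0, 2 were called lower, beside 4.00% of all tested genes, none was called higher, beside 11.7%, and 7 did not pass. Below 0 lay 51.9% of all tested genes. The median log2 fold change of the 9 was -0.80, against -0.02 over all tested genes and -0.63 over the cardiomyocyte reference genes, of which all 18 were below 0 and 0 were called (1 at an unadjusted p under 0.05 by limma). Of the 9, 4 lay lower in every ICI-myocarditis library than in any control (Hrc, Ryr2, Trdn and Cacna1c), as did 11.3% of tested genes. The authors' deposited table gave these 4 an adjusted p under 0.05, with 7.35% of its genes lower by that rule. On the recovered reads DESeq2 and limma-voom called the same 4 (with 8.39% and 9.95% of all genes lower) and edgeR called Hrc and Trdn (3.47% lower).

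**Figure D1:**
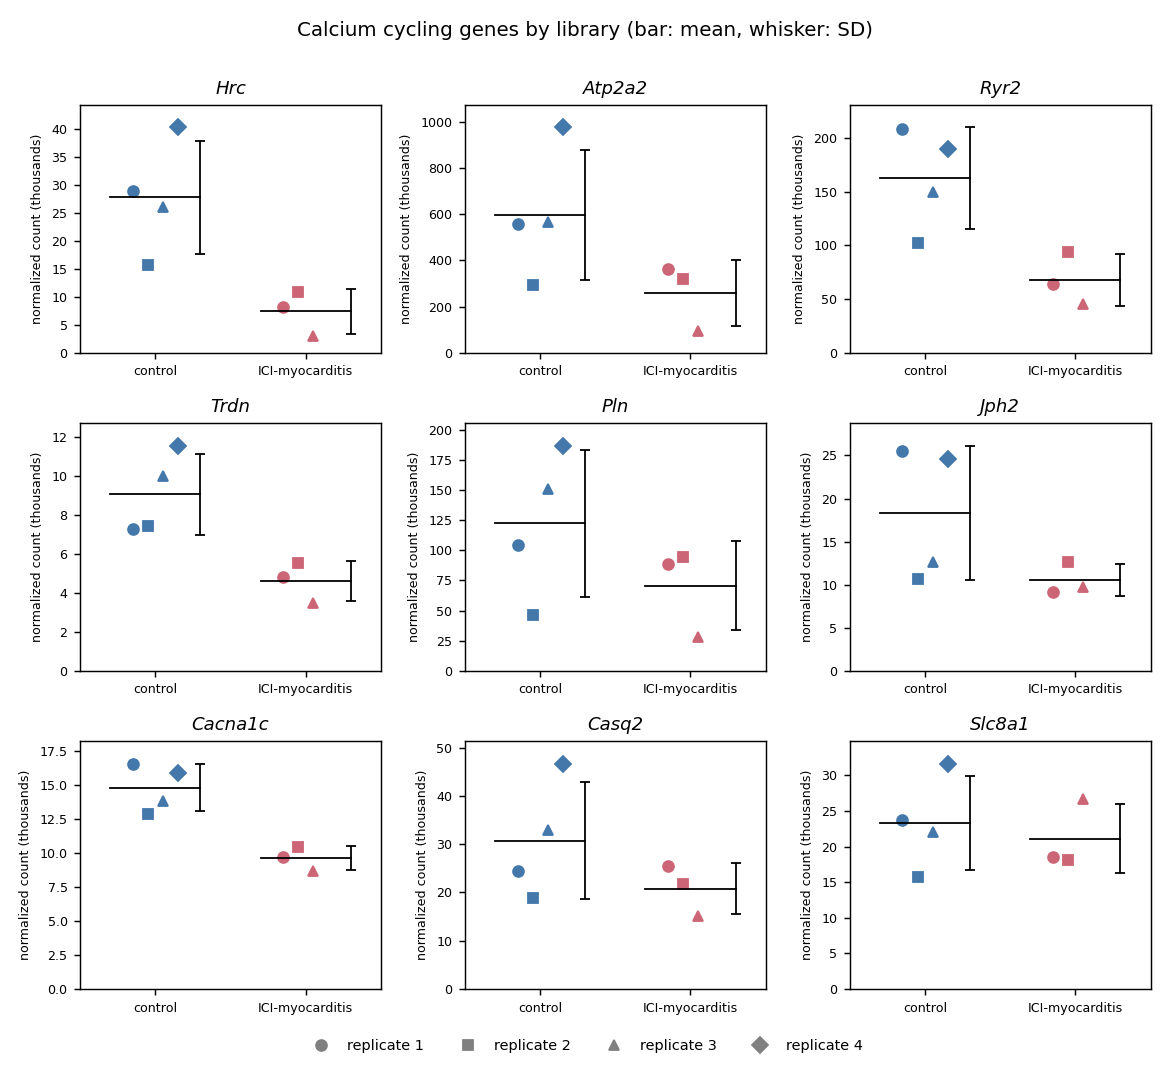
Normalized counts (y axes, linear from 0, scaled as the axis labels state) of the 9 tested calcium cycling genes in 4 control and 3 ICI-myocarditis libraries. Points are libraries with a symbol per replicate number, horizontal bars are means and whiskers are SD. Hrc, Ryr2, Trdn and Cacna1c show no overlap between groups, while control 2 lies below at least 1 ICI-myocarditis library for Atp2a2, Pln, Jph2, Casq2 and Slc8a1.

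Hrc had the largest difference. The gene, at chr7:45335290-45338974 on the plus strand (GENCODE M21, GRCm38), had 28976, 15743, 26033 and 40260 normalized counts in controls 1 to 4 and 8245, 10940 and 3030 in ICI-myocarditis 1 to 3. The groups did not overlap, and ICI-myocarditis 3 lay at 31.6% of the mean of the other ICI-myocarditis libraries. Mean levels were 27753 ± 10085 (SD, n = 4) and 7405 ± 4021 (SD, n = 3). The log2 fold change was -2.02 (SE 0.475, 95% interval -3.09 to -0.95, limma adjusted p = 0.0212), which is 24.7% of the control level. Leaving out each library in turn kept it between -2.40 and -1.47, and it passed the threshold in 4 of these 7 fits. It missed without control 1, without control 3 and without ICI-myocarditis 3 (limma adjusted p = 0.0634, 0.0621 and 0.0702).

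Trdn, the other called gene, is at chr10:33080554-33476709. Its levels were 7248, 7411, 9969 and 11547 normalized counts in the controls and 4815, 5527 and 3477 in ICI-myocarditis. The highest ICI-myocarditis library thus lay below the lowest control. The log2 fold change was -0.97 (limma adjusted p = 0.0383 with an SE of 0.267), which is 51.0% of the control level. The call was less firm than that of Hrc, since it remained only without control 2 among the 7 fits that left out a library, with adjusted p from 0.0247 to 0.175. In those fits the share of all genes called lower was 1.60%, 7.18%, 1.16% and 3.55% without controls 1 to 4 and 2.23%, 2.20% and 1.04% without ICI-myocarditis 1 to 3.

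Ryr2, the release channel itself, is at chr13:11553102-12106945. It had 208425, 102219, 149350 and 189824 normalized counts in the controls and 64379, 93747 and 45608 in ICI-myocarditis. The groups were apart, but control 2 and ICI-myocarditis 2 lay close to each other. The log2 fold change of -1.27 (SE 0.395, 95% interval -2.16 to -0.38) did not pass the threshold (limma adjusted p = 0.0594). It passed without control 2 (limma adjusted p = 0.0180), and under DESeq2 on the recovered reads (adjusted p = 0.00210) but not under edgeR (adjusted p = 0.0592), and in all it passed in 6 of 26 alternatives.

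Casq2 (chr3:102086415-102146514), the buffer that Trdn links to Ryr2, did not pass the test. Its levels were 24497, 18780, 32896 and 46698 normalized counts in the controls and 25482, 21718 and 15159 in ICI-myocarditis, so the groups overlapped. Its log2 fold change was -0.51 (SE 0.365, 95% interval -1.34 to 0.31, limma adjusted p = 0.389). Jph2 (chr2:163336242-163397993), the junctional tether, had 25502, 10674, 12664 and 24629 normalized counts in the controls and 9198, 12664 and 9713 in ICI-myocarditis. Its controls fell into a high pair (1 and 4) and a low pair (2 and 3) that reached into the ICI-myocarditis range, and the log2 fold change of -0.71 did not pass (limma adjusted p = 0.227 with an SE of 0.364).

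Cacna1c (chr6:118587240-119196418), the L-type channel pore, was the least variable of the 9, with a coefficient of variation of 11.6% in controls and 9.25% in ICI-myocarditis. It had 16539, 12862, 13827 and 15852 normalized counts in the controls and 9668, 10425 and 8658 in ICI-myocarditis, with no overlap. The difference was modest, at a log2 fold change of -0.62 (SE 0.228, 95% interval -1.13 to -0.11), and did not pass (limma adjusted p = 0.0998). DESeq2 and limma-voom with quality weights on the recovered reads called it (adjusted p = 0.00566 and 0.0340).

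Atp2a2, at chr5:122453513-122502225, was the most abundant of the 10 per kilobase of the longest coding transcript, though not of the shortest. Its levels were 555331, 295401, 565196 and 975432 normalized counts in the controls and 361196, 318802 and 96234 in ICI-myocarditis. Both groups spread widely, and control 2 lay below ICI-myocarditis 1 and 2. The log2 fold change of -1.30 was as large as that of Ryr2 but much less precise (SE 0.587, 95% interval -2.62 to 0.02, limma adjusted p = 0.174). Without ICI-myocarditis 3, which had 28.3% of the mean of the other ICI-myocarditis libraries, it was -0.69 (limma adjusted p = 0.557).

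Pln (chr10:53337667-53345987), the inhibitor of the pump, had 104811, 46508, 151039 and 187035 normalized counts in the controls and 88964, 94722 and 28359 in ICI-myocarditis. Control 2 was below ICI-myocarditis 1 and 2, as for Atp2a2. The log2 fold change was -0.80 (limma adjusted p = 0.403 with an SE of 0.589), and without ICI-myocarditis 3 it was -0.24.

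Sln (chr9:53850164-53854560), the other small inhibitor, was close to absent. It had 0, 3, 3 and 1 recovered reads in controls 1 to 4 and 0, 1 and 0 in ICI-myocarditis 1 to 3. No library exceeded 3 reads, so no fold is given. In the mouse heart Sln is known as an atrial gene. Of the other atrial markers some were near 0 and Nppa and Dkk3 were called higher in ICI-myocarditis, as given above.

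Slc8a1 (chr17:81373105-81738377), the exchanger, had the fold change nearest to 0 of the 9 tested genes. It had 23787, 15702, 21999 and 31658 normalized counts in the controls and 18585, 18129 and 26669 in ICI-myocarditis. All 3 ICI-myocarditis libraries lay inside the control range. The log2 fold change was -0.12 (SE 0.312, 95% interval -0.82 to 0.58, limma adjusted p = 0.838), and its sign turned with scaling by library size, with scaling to the reference genes and without control 4. ICI-myocarditis 3, the lowest of all 7 libraries for the remaining tested genes other than Jph2, had the highest Slc8a1 level of its group, at 145% of the mean of the other ICI-myocarditis libraries.

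Much of the spread within groups was shared among the genes. Control 2 was the lowest control for 8 of the 9 tested genes and ICI-myocarditis 3 the lowest of all 7 libraries for 7 of them. This order was not particular to the calcium genes. The summed cardiomyocyte reference genes had the same lowest control (2853041 normalized counts) and the same lowest library (2192476). The share of all tested genes with this order was not counted. Controls 1, 3 and 4 all lay above every ICI-myocarditis library for 6 of the 9 genes, as they did for 18.8% of tested genes. Leaving out control 2 and ICI-myocarditis 3 together, a choice made after seeing the data, gave log2 fold changes of -1.72 for Hrc, -1.22 for Ryr2, -0.87 for Trdn and -0.61 for Cacna1c. Hrc and Ryr2 were called in that fit (limma adjusted p = 0.00350 and 0.0351), in which 3.28% of tested genes were called lower.

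Scaling to the 18 cardiomyocyte reference genes asked whether a calcium gene differed more than the mean of these sarcomere and related muscle genes. Before scaling, their own log2 fold changes ran from -1.16 to -0.06. This scaling moved the median log2 fold change of all tested genes up by 0.62 and called 0.263% of genes lower and 9.73% higher. Hrc remained lower, at -1.40 (SE 0.284, 95% interval -2.03 to -0.76, limma adjusted p = 0.0199), and was the one gene of the 9 called. It passed in 3 of 7 fits that left out a library under this scaling, with adjusted p from 0.00726 to 0.0994. Ryr2 was at -0.65 (95% interval -1.12 to -0.18) and Atp2a2 at -0.68 (95% interval -1.30 to -0.06). Neither passed (limma adjusted p = 0.0825 and 0.148). On this scale the lowest control and the highest ICI-myocarditis library nearly met. They were at log2 levels of 16.71 and 16.68 for Ryr2 and of 18.58 and 18.56 for Atp2a2.

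The other calcium genes moved close to the reference genes or above them under that scaling. Trdn was at -0.35 (95% interval -0.94 to 0.24, limma adjusted p = 0.376), so its call did not remain. Pln was at -0.18, Jph2 at -0.09, Cacna1c at 0.00 (95% interval -0.60 to 0.60) and Casq2 at 0.11 (95% interval -0.35 to 0.57). Slc8a1 was at 0.50 (95% interval -0.17 to 1.18, limma adjusted p = 0.287), and at 0.10 without ICI-myocarditis 3. These intervals span changes in either direction and do not show that the genes kept pace with the reference.

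**Figure D2:**
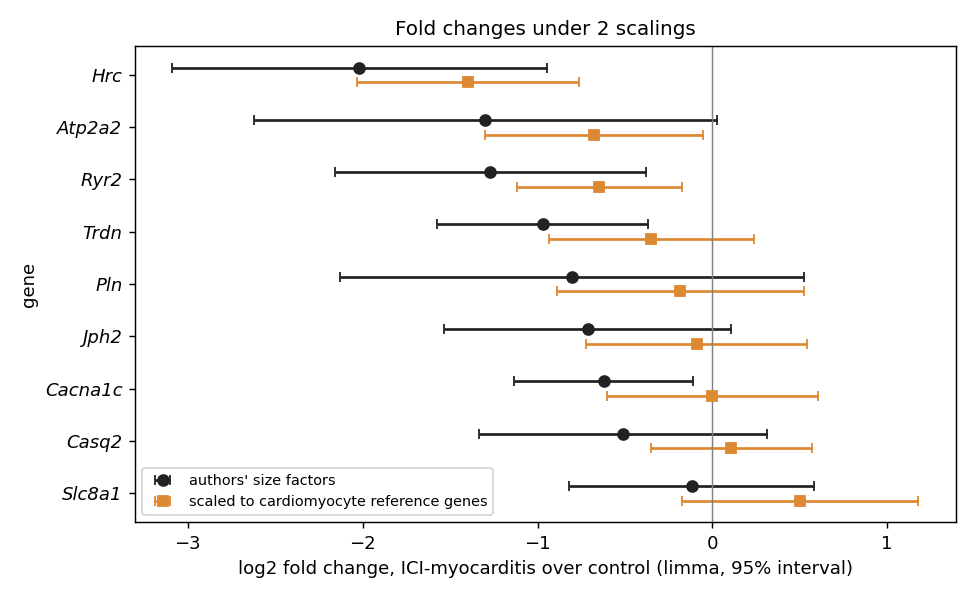
Log2 fold changes (x axis) of the 9 tested genes (y axis) with 95% intervals from limma, with the authors' size factors (circles) and after scaling to 18 cardiomyocyte reference genes (squares). Hrc lies below 0 under both, at -2.02 and -1.40, while Cacna1c moves from -0.62 to 0.00 and Slc8a1 from -0.12 to 0.50.

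Ratios between genes within a library do not depend on the size factor and compare partners of the cycle directly. With 4 against 3 mice the exact two-sided permutation test over 35 splits cannot give a p below 0.0286. The log2 ratio of Pln to Atp2a2 was -2.41, -2.67, -1.90 and -2.38 in controls and -2.02, -1.75 and -1.76 in ICI-myocarditis. ICI-myocarditis 2 and 3 lay above all controls and ICI-myocarditis 1 below control 3. The mean ratio was 0.49 higher on the log2 scale in ICI-myocarditis (exact permutation p = 0.0857, adjusted over 4 ratios 0.114).

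The log2 ratio of Slc8a1 to Atp2a2 was -4.55, -4.23, -4.68 and -4.95 in controls and -4.28, -4.14 and -1.85 in ICI-myocarditis. Its mean was 1.18 higher in ICI-myocarditis (exact permutation p = 0.0571, adjusted 0.114), but without ICI-myocarditis 3 the difference was 0.39. This library had the lowest Atp2a2 and the second highest Slc8a1 level of all 7.

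Relative to Ryr2, both the buffer and the trigger channel lay higher on average. The log2 ratio of Casq2 to Ryr2 was -2.43 ± 0.469 (SD, n = 4) in controls and -1.68 ± 0.394 (SD, n = 3) in ICI-myocarditis, a difference of 0.76 that did not pass (exact permutation p = 0.114, adjusted 0.114). That of Cacna1c to Ryr2 was -3.42 ± 0.298 and -2.77 ± 0.387, a difference of 0.65 (exact permutation p = 0.0857, adjusted 0.114). Groups overlapped in all 4 ratios. Each difference is also the gap between the fold changes of its genes, and the ratios share the denominators Atp2a2 and Ryr2. Their common sign is therefore not separate evidence.

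**Figure D3:**
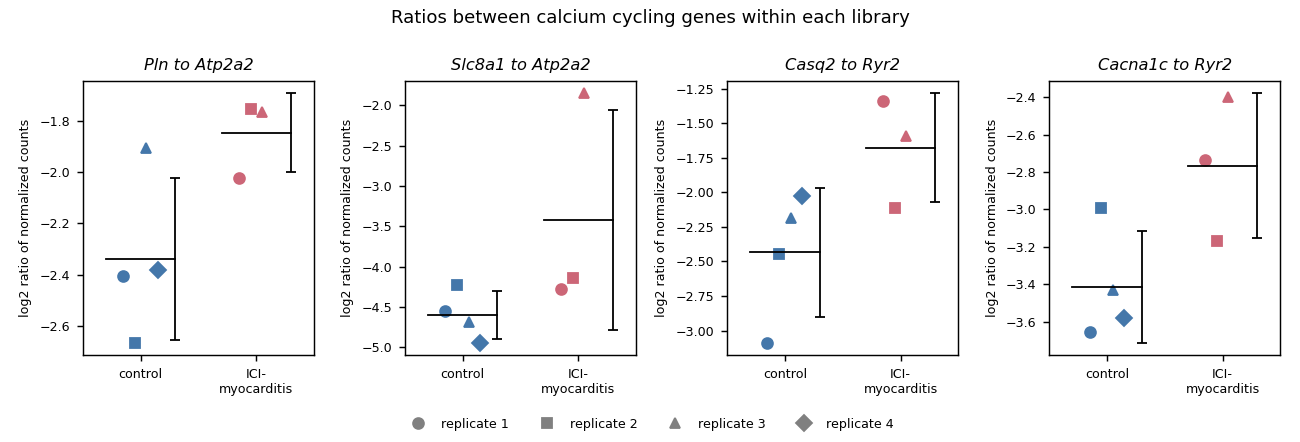
Log2 ratio of normalized counts (y axes, not starting at 0) within each of the 7 libraries for 4 gene pairs, with means (bars) and SD (whiskers). The ratio of Slc8a1 to Atp2a2 in ICI-myocarditis 3, at -1.85, lies far above the other libraries, which run from -4.95 to -4.14.

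Levels of different genes were compared per kilobase of coding transcript in GENCODE M21, first the longest. In controls Atp2a2 led with 133268 ± 62644 normalized counts per kilobase (SD, n = 4), then Pln with 52420 ± 26022, Casq2 with 12018 ± 4745, Hrc with 11511 ± 4183 and Ryr2 with 9662 ± 2803. Casq2, Hrc and Ryr2 did not differ beyond their spread. Jph2 (4362 ± 1849), Trdn (2004 ± 461), Slc8a1 (1261 ± 356) and Cacna1c (1122 ± 130) followed, the last pair within their spread, and Sln came last. In ICI-myocarditis Hrc stood at 3071 ± 1668, behind Ryr2 at 4039 ± 1443, again within the spread. With the shortest coding transcripts Pln came first and Atp2a2 second in both groups, so the order depends on which isoforms were expressed, which gene counts do not show.

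The wider set of calcium handling genes was read from a list of 85 rows grouped by role, of which 83 were tested. Of these 83, 2 were called lower, 6 higher and 75 did not pass, beside 4.00% and 11.7% of all tested genes, and their median log2 fold change was -0.10. In 10 of them every ICI-myocarditis library was lower than any control and in 10 higher, beside 11.3% and 17.3% of all tested genes. Channel subunits beside the Cacna1c pore showed no common direction, with 5 of 10 below 0. The auxiliary subunits Cacnb2 and Cacna2d1 had 2296 ± 621 and 9993 ± 4597 normalized counts in the controls and 1743 ± 600 and 6601 ± 2582 in ICI-myocarditis (a log2 difference of -0.43 and -0.57, limma adjusted p = 0.387 and 0.428). Cacna1d, the pore of a second L-type channel typical of pacemaker and atrial cells, rose from 185 ± 56.7 to 436 ± 139 normalized counts (a log2 change of 1.24, limma adjusted p = 0.0318), and kept its call under 10 of 18 alternatives. The atrial marker sum was 8781 to 11356 in controls and 41282 to 178047 in ICI-myocarditis. In ICI-myocarditis nearly all of it was Nppa, which is also induced in stressed ventricle. The part of atrial transcripts in the Cacna1d value was not tested. Rrad, an inhibitor of the L-type channel, was at -0.54 (limma adjusted p = 0.207).

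Among proteins of the release unit, 2 of 16 rose past the threshold, a share near the 11.7% of all tested genes called higher, and none fell. Fkbp1b, which encodes the small protein bound to the ryanodine receptor, had only 22, 19, 18 and 8 recovered reads in controls and 45, 57 and 128 in ICI-myocarditis, or 18.9 ± 6.11 (SD, n = 4) and 61.7 ± 31.3 (SD, n = 3) normalized counts. All ICI-myocarditis libraries lay above all controls, with a log2 fold change of 1.61 (limma adjusted p = 0.0430 with an SE of 0.457), opposite in sign to its partner Ryr2. Ryr1, the skeletal muscle isoform, rose from 13.8 ± 10.2 to 45.4 ± 5.31 normalized counts, a log2 difference of 1.89 (limma adjusted p = 0.0462 with an SE of 0.546). The summed level of 12 skeletal muscle markers ran from 1211 to 1645 normalized counts in the controls and from 1390 to 1579 in ICI-myocarditis, so it overlapped. Its largest part in each library was Neb (558 to 1244). Of these markers 1, Tnnt3, was called higher (6.26 to 28.2 and 37.9 to 129, log2 change 2.18, limma adjusted p = 0.0450), and the part of skeletal muscle transcripts in the Ryr1 value was not tested. Asph (-0.56), the locus that encodes junctin, Srl (-0.32), for sarcalumenin, and S100a1 (-0.52), for a calcium sensor that binds Ryr2 and the pump, did not pass (limma adjusted p = 0.189, 0.656 and 0.477). Both calls in this role were fragile: Fkbp1b passed in 8 of 17 alternatives and Ryr1 in 9 of 17.

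The remaining roles held the decreases and 3 of the 6 increases. Camk2a, a calmodulin-dependent kinase gene, fell by 1.30 on the log2 scale (limma adjusted p = 0.0499, passing in 4 of 18 alternatives), while Camk2d, the main cardiac isoform, had 6238 ± 1297 and 5130 ± 542 normalized counts (log2 fold change -0.26, limma adjusted p = 0.511). Mcub, read under its older symbol Ccdc109b and encoding the subunit that dampens the mitochondrial calcium uniporter, rose from 85.8 ± 25.5 to 332 ± 103 (log2 fold change 1.94, limma adjusted p = 0.00526 with an SE of 0.312) and kept its call under all 18 alternatives. The pore gene Mcu was at -0.52 (limma adjusted p = 0.0956 with an SE of 0.188). Atp2b2, a plasma membrane calcium pump, and Orai2, a store-operated channel, rose by 2.37 and 2.31 on the log2 scale (limma adjusted p = 0.0157 and 0.0163), and each passed in 16 of 18 alternatives. Both calls were lost without control 3 (limma adjusted p = 0.0529 and 0.0511) and without ICI-myocarditis 3 (0.0758 and 0.0729). For Mcub, Orai2 and Cacna1d control 2 was the highest control and ICI-myocarditis 3 the highest library. For Atp2b2 and Fkbp1b ICI-myocarditis 3 was the highest as well, but control 2 (44.4 and 23.4 normalized counts) hardly differed from control 1 (44.4 and 22.2). Control 2 and ICI-myocarditis 3 were also the highest in their group for the T cell marker sum, whose part in these values was not tested.

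**Figure D4:**
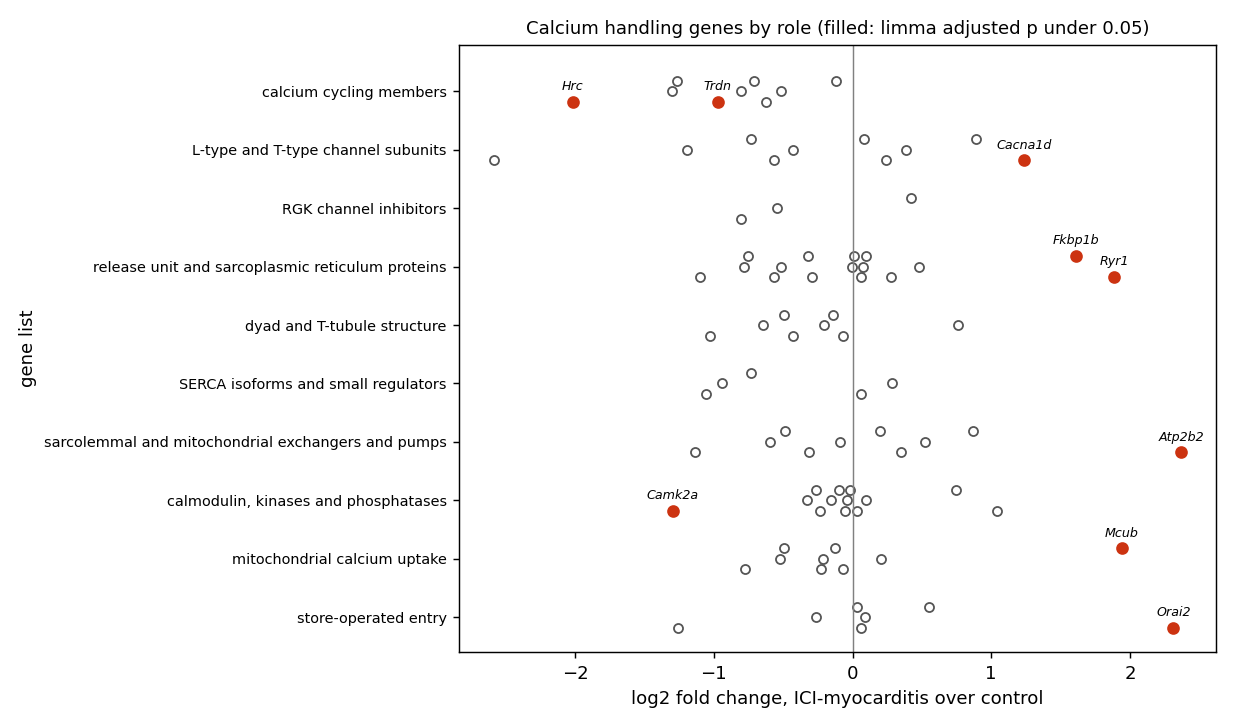
Log2 fold changes (x axis) of the calcium cycling genes (top line) and of other tested calcium handling genes, without those not reported here, grouped by role (y axis). Filled points passed limma's adjusted p of 0.05 and are named: Hrc, Trdn and Camk2a were lower, and Cacna1d, Fkbp1b, Ryr1, Atp2b2, Mcub and Orai2 were higher.

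Atp2b1, the main plasma membrane pump gene of many tissues, did not pass. It had 3805 ± 196 (SD, n = 4) normalized counts in controls against 4911 ± 1028 (SD, n = 3) in ICI-myocarditis (a log2 difference of 0.35, limma adjusted p = 0.298).

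The genes whose log2 levels followed the mean of the 10 calcium cycling genes most closely over the 7 libraries were Efcab2, Agbl2, Vwa8, Hist2h2be and Ddo, with Pearson r from 0.996 to 0.999. All 5 were lower in every ICI-myocarditis library than in any control, with log2 fold changes between -1.31 and -1.06, so r here includes the difference between groups. With Sln left out of the mean the 5 nearest genes were Ecsit, 4632415K11Rik, Gfm1, Tmem186 and Crat, and 0 were shared. The ranking of nearest genes therefore turned on a gene with at most 3 reads per library.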

How the data were processed

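Stranded total RNA libraries of mouse ventricle were compared between 4 control and 3 ICI-myocarditis mice, grouped by the sample labels. The submitters' processing notes name STAR 2.7.3 and GRCm38 (mm10). The counting program, annotation and use of strand are not given in the sources used here, so reads of overlapping antisense genes may be included. For each library the authors deposited a signal that, judged from the values, is the gene read count over a size factor. Read numbers were recovered by dividing by the smallest value above 0 of each library, taken as the step of 1 read. This left 100% of values whole within 0.001. For control 1 the step was 1.01, so near 1 that this sign is weaker. The authors' deposited table also holds a log2 fold change, a score (test statistic), p-values and adjusted p-values. Rows whose names had become dates (27, with 0.143% of reads) were left out.

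Limma (3.58.1, R 4.3.3) with trend and robust variance was fitted to log2(normalized count + 1) for genes that reached 10 normalized counts in 3 or more libraries, with Benjamini-Hochberg adjustment over all 15236 genes. The log2(value + 1) scale understates changes of low genes. Alternatives were pseudocounts of 0.5 and 5, no filter or 50 counts, limma without trend, limma-voom, edgeR 4.0.16 and DESeq2 1.42.0 on recovered reads, 2 other scalings, a replicate block and leaving out each library. The fit was tested on simulated counts drawn independently for each gene and library. These lacked the spread shared among genes in the real libraries, so that test does not cover it. A planned ratio of Sln to Atp2a2 was not computed because Sln had at most 3 reads. The calcium cycling genes and the gene lists were chosen with earlier results of these data known. Named other genes were those called, a set listed in the design and the 5 nearest genes; Strit1, on that list, was not analysed here, and 2 other listed genes count in the totals but are not reported here. List genes were matched by symbol or by a RefSeq synonym (GRCm38.p6). Beyond genotype, age and treatment the labels give the mice only a number, so p-values measure the spread between these samples.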

Additional observations from a re-analysis of the deposited data

How the results depend on the processing

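The count of 2392 called genes was 3998 with limma-voom, 1523 with scaling to the cardiomyocyte reference genes and 983 to 3333 when each library was left out (fewest without ICI-myocarditis 3, most without control 2). The 2 calcium cycling genes called lower were 4 with limma-voom and 4 with DESeq2, 1 with reference scaling, and 0 to 3 with a library left out; 0 were called higher under every alternative run. Of the other calcium handling genes, 2 were called lower in the limma fit, 1 with a pseudocount of 0.5, 1 with no filter, 1 with a filter of 50, 9 with limma-voom, 1 with edgeR, 10 with DESeq2, 0 with library size scaling, 0 with reference scaling and 0 to 7 with a library left out. The 6 called higher were 12 with limma-voom and 1 to 8 with a library left out. Scaling by library size moved the median of all genes by 0.16 on the log2 scale.

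Under reference scaling, which moved that median by 0.62, log2 fold changes turned positive for Casq2 (0.11), Cacna1c (0.000438), Slc8a1 (0.50), Camk2d (0.36), Cacnb2 (0.19), Cacna2d1 (0.0536), Asph (0.0564), Srl (0.30), Mcu (0.10), S100a1 (0.11) and Rrad (0.0770). With that scaling and a library left out, an alternative chosen after seeing the data, positive values were, for controls 1 to 4 and then ICI-myocarditis 1 to 3 where they turned, 0.12, 0.17, 0.15, 0.0723, 0.16 and 0.0970 for Casq2 (all but control 1), 0.0228, 0.16, 0.12 and 0.0330 for Cacna1c (controls 1 and 2, ICI-myocarditis 1 and 2), 0.0677 and 0.13 for Jph2 (control 1, ICI-myocarditis 1), 0.16 for Pln (ICI-myocarditis 3) and 0.49, 0.55, 0.49, 0.48, 0.71, 0.70 and 0.10 for Slc8a1. Slc8a1 was also positive with library size scaling (0.0408), and with each library left out it ran from -0.30 without ICI-myocarditis 3 to 0.0430 without control 4. The cause was not tested. The differences in log2 ratio stayed positive with a library left out, at 0.39 to 0.64 for Pln to Atp2a2, 0.39 to 1.61 for Slc8a1 to Atp2a2, 0.54 to 0.97 for Casq2 to Ryr2 and 0.46 to 0.85 for Cacna1c to Ryr2.

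Same-numbered libraries did not deviate together (correlations -0.27, -0.21 and -0.08), so the numbers were not taken as pairs. With the replicate block, in which control 4 has no partner and adds nothing to the fold, 1 calcium cycling gene (Hrc, limma adjusted p = 0.0490) and 1 other calcium handling gene were called lower and 3 higher, and Slc8a1 was at 0.0430. At most 3 reads of Sln per library were counted, so no difference in it was detectable at this depth.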
